A study of Mus musculus with 3 samples.

Results

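A set of 9 genes of microglial immune signalling, of which several carry human Alzheimer risk variants, were followed through 149 single cells dissected from the subventricular zone of the mouse brain, where neural stem cells reside. The set was given as a list of symbols, Inpp5d, Abi3, Bin2, Pld4, Laptm5, Ptprc, Trem2, Tyrobp and Fcer1g, and all 9 were found among the 16178 genes of the expression table. For each one the level by cluster, the share of cells in which it was detected, and its relation to the autofluorescence of the cell were measured inside and outside cluster 1, the cluster that holds microglia-like cells.

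The 3 samples form 1 group of male C57BL/6J mice, with no mutant allele or agent named. No age is stated for them. Each sample was read as 1 plate of cells from 8 pooled mice, so a plate is a replicate and a cell is not. The series design can also be read as 8 mice in all, in which case the plates may not be independent pools. The tissue was trypsinised and enriched on a magnetic column for cells that carry GLAST, the astroglial glutamate transporter encoded by Slc1a3, and myelin was depleted in 2 of the 3 experiments, which are not named.

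Microglia are the resident macrophages of the brain. Surface receptors such as TREM2 lack a signalling tail of their own and pair with small adaptors, TYROBP (also called DAP12) or the Fc receptor gamma chain FCER1G, whose tyrosine motif recruits the kinase SYK once it is phosphorylated. Inpp5d encodes the lipid phosphatase SHIP, which restrains this pathway, and Ptprc encodes the tyrosine phosphatase that is common to leukocytes. Variants in or near human TREM2, ABI3 and INPP5D are associated with the risk of Alzheimer disease.

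The genes lie on 7 chromosomes of the mouse genome (GRCm38, GENCODE vM21), and each is annotated as protein coding. Trem2 spans chr17:48346401-48354147 on the plus strand, Tyrobp chr7:30413760-30417585 on the plus strand and Fcer1g chr1:171229572-171234365 on the minus strand. Inpp5d spans chr1:87620312-87720507 on the plus strand and Ptprc chr1:138062861-138175708 on the minus strand. Abi3 spans chr11:95830074-95842476 on the minus strand and overlaps Zfp652, Phospho1 and Gngt2 on the other strand, so its counts are uncertain to the extent that strand was not used in counting. Bin2 spans chr15:100641077-100669553 on the minus strand, Pld4 chr12:112760655-112768990 on the plus strand and Laptm5 chr4:130913125-130936141 on the plus strand. Bin2 overlaps Mir6961 and Ptprc overlaps A130071D04Rik, each on the same strand.

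Since the members rose and fell together over the clusters, their promoters were read from RefSeq (GRCm38.p6), where 6 of the 9 members matched and Abi3, Bin2 and Tyrobp did not. The letters AGGAAGT or their reverse complement ACTTCCT, a core that ETS factors such as PU.1 of myeloid cells are known to bind, were searched on both strands from 250 bases before to 50 bases after each start. They were present in windows of 3 of the 6 members, Inpp5d, Ptprc and Pld4, and in 9.35% of 32851 mouse windows. The longer run GAGGAAGT, which contains AGGAAGT, was present in 2 of the 6, Inpp5d and Pld4, and in 3.2% of windows. The shorter run AGGAAG, contained in both, was present in 6 of 6 and in 35.4% of windows. The lines below run from 170 bases before the start to 30 after it, 5′ to 3′ on the strand of the gene, for the 3 members with a match and for Trem2, which has none. Capitals mark AGGAAGT or ACTTCCT.
Inpp5d, chr1:87620142-87620341, plus strand: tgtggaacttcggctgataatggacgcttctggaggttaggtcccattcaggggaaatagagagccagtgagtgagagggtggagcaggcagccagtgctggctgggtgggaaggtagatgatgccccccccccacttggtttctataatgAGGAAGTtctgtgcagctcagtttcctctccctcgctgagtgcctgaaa
Ptprc, chr1:138175276-138175475, minus strand: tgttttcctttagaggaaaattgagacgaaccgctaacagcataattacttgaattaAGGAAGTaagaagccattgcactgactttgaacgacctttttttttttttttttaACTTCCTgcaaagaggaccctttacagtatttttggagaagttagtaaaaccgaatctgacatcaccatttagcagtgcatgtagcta
Pld4, chr12:112760485-112760684, plus strand: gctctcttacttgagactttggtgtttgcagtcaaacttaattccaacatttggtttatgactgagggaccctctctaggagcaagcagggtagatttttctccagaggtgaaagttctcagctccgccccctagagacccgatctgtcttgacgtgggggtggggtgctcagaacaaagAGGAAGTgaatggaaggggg
Trem2, chr17:48346231-48346430, plus strand: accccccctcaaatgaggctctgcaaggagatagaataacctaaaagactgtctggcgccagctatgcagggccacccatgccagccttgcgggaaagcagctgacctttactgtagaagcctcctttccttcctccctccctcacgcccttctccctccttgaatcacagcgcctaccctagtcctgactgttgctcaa
The match in Inpp5d begins 19 bases before the start, and another lies 31 bases after it, beyond the stretch shown. Ptprc has 1 match 113 bases and another 58 bases before the start in the window shown. RefSeq lists another window for a start nearby, which overlaps it. Both windows lie inside the GENCODE span of Ptprc given above, so these positions hold for the RefSeq starts and not for the GENCODE one. Pld4 has its match 10 bases after the start. These matches are descriptions of the letters only and were not set against binding data.

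The plates held 43, 45 and 61 cells with 297573, 413728 and 478504 transcripts, and between 1208 and 37442 transcripts per cell. The 149 cells used 86 well positions, of which 50 occurred on more than 1 plate, as wells of different plates carry the same barcodes. Cluster 1 held 36 cells, 9 on plate 1, 18 on plate 2 and 9 on plate 3. Its median depth of 3448 molecular identifiers per cell was below that of cluster 0 (9472), cluster 2 (8503), cluster 3 (4184.5) and cluster 4 (17292.5). GEO labels all cells as neural stem cells, and cluster 1 goes against that label. A list of 17 measured microglia markers summed to between 49168 and 54730 CPM (transcripts scaled to a total of 1000000 per sum) in its 3 plate sums, and to between 173 and 1178 CPM in every sum of other clusters. Slc1a3, the gene of the selection antigen, was at 307 CPM in cluster 1 against 5670 CPM in cluster 3. Of 12 measured markers of border macrophages and monocytes, 10 were at 0 in cluster 1, among them Mrc1, Lyve1, Ms4a7 and Ccr2, and of the other two Stab1 had 38 identifiers and Cd74 had 2. Of 7 measured lymphocyte markers, Cd3e, Lck, Klrb1c and Cd8a were at 0 in cluster 1, while Cd3d had 9 of its 29 identifiers there, Cd79b 4 of 4 and Cd4 1 of 1. Other leukocytes use Ptprc and Fcer1g as well, and their part in these values was not tested.

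All members were concentrated in cluster 1 on every plate. Since the clusters were drawn by the authors on these very values, the contrast is a description and was not tested. Of 1250 identifiers from the 9 genes, 1166 were in cluster 1, where they made up 0.919% of all identifiers, and 84 were among the other 113 cells, where they made up 0.00798%. The sum of each member in cluster 1 was above its sum in every other cluster, on every plate with at least 3 cells, for 9 of 9 genes. Among the 7599 genes with at least 20 transcripts, 7.72% had that pattern.

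**Figure D1:**
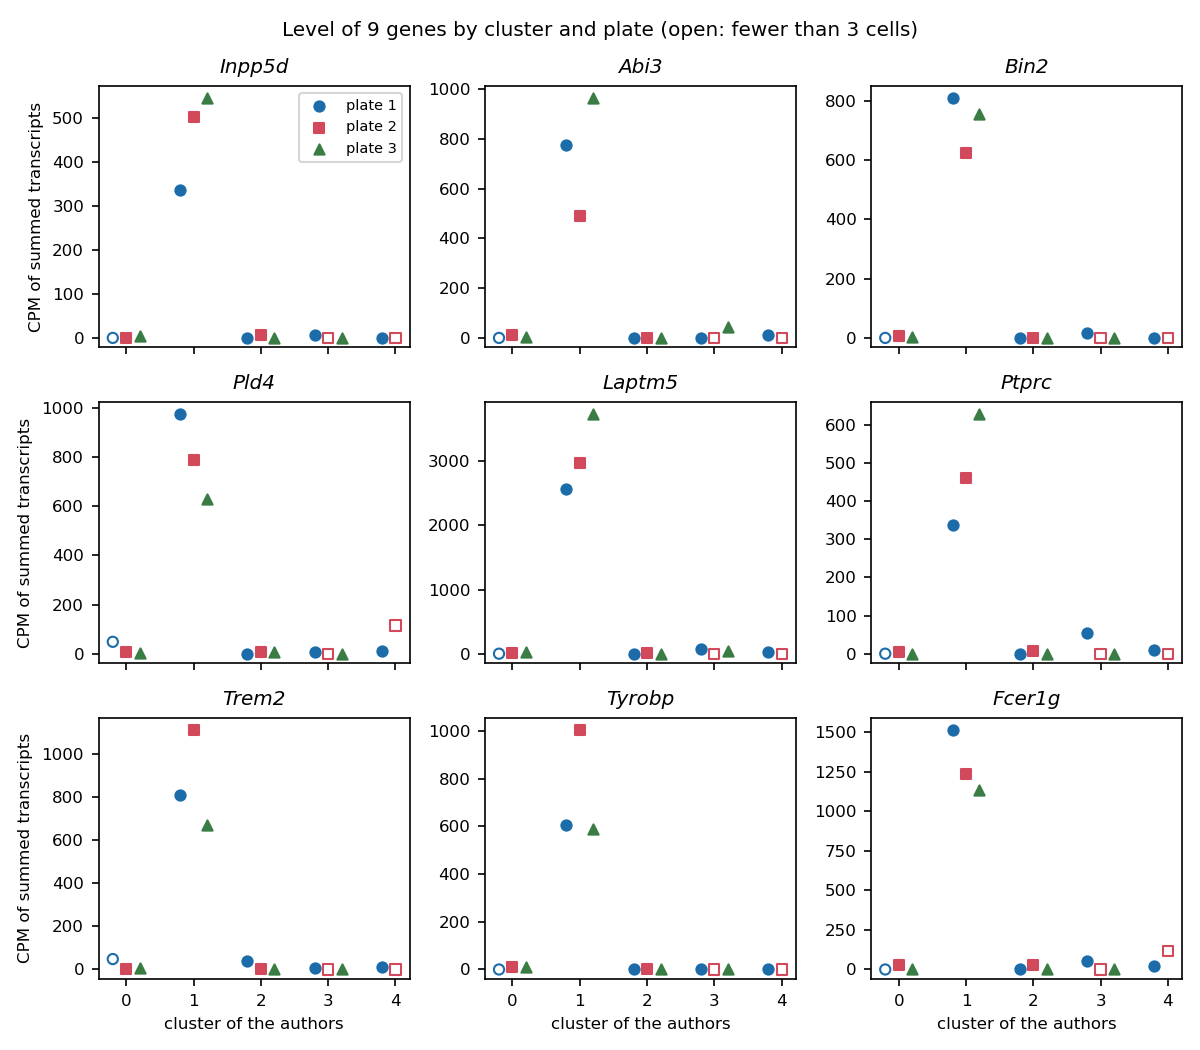
Each panel plots 1 gene: the x axis gives the cluster, the y axis the CPM of transcripts summed over the cells of that cluster on 1 plate, and colours and shapes mark the 3 plates. Open symbols stand for sums of fewer than 3 cells; every gene is high in cluster 1 on all 3 plates and near 0 elsewhere.

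Trem2, the lipid-sensing receptor, was at 809, 1114 and 671 CPM in cluster 1 on plates 1, 2 and 3 (865 ± 227, SD, n = 3 plates). Outside cluster 1 it was at 14.9 CPM on plate 1, at 0 on plate 2, where 3 counts would be 8.82 CPM, and at 4.40 CPM on plate 3. Every plate of cluster 1 lay above all cells outside, where 6 of 128 Trem2 identifiers were found.

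Tyrobp, the adaptor of TREM2, was at 606, 1005 and 587 CPM in cluster 1 (733 ± 236, SD, n = 3). Outside it was at 0 on plate 1, where 3 counts would be 11.2 CPM, at 5.88 CPM on plate 2 and at 4.40 CPM on plate 3. Like Trem2, Tyrobp was highest in cluster 1 on plate 2. Its 4 identifiers outside cluster 1 all lay in cluster 0, and clusters 2, 3 and 4 had none.

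Fcer1g, the other adaptor, was at 1517, 1236 and 1133 CPM in cluster 1 (1295 ± 199, SD, n = 3) and at 33.6, 29.4 and 2.20 CPM outside. Of its 183 identifiers, 20 lay outside cluster 1, 7 of them in cluster 3 and 6 in cluster 0. The mean outside was 59.6-fold lower than in cluster 1.

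Inpp5d, the inhibitory phosphatase, was at 337, 502 and 545 CPM in cluster 1 (462 ± 110, SD, n = 3) and at 3.73, 2.94 and 2.20 CPM outside, which is 1 identifier on each plate. Ptprc, the leukocyte phosphatase, was at 337, 462 and 629 CPM in cluster 1 (476 ± 147, SD, n = 3) and at 29.9, 5.88 and 0 CPM outside, where 3 counts on plate 3 would be 6.60 CPM. Over all plates 85.5% of Ptprc identifiers and 95.2% of Inpp5d identifiers lay in cluster 1. The Ptprc value rests on plate 1, which held 8 of its 10 identifiers elsewhere; the mean share over plates ranged from 75.0 to 97.2% with a plate left out. Of these 10, 7 lay in cluster 3, and the 53.5 CPM of cluster 3 on plate 1 was its highest sum outside cluster 1.

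Abi3, a subunit of the actin-regulating WAVE complex, was at 775, 489 and 965 CPM in cluster 1 (743 ± 240, SD, n = 3) and at 3.73, 5.88 and 4.40 CPM outside. Bin2, a membrane-bending BAR-domain protein of leukocytes, was at 809, 625 and 755 CPM (730 ± 94.6, SD, n = 3) and at 7.47, 2.94 and 2.20 CPM outside. Neither gene had an identifier in cluster 2.

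Pld4, an exonuclease of endolysosomes that degrades single-stranded nucleic acid, was at 977, 788 and 629 CPM in cluster 1 (798 ± 174, SD, n = 3) and at 11.2, 8.82 and 4.40 CPM outside. Laptm5, a lysosomal membrane protein of blood-lineage cells, was at 2563, 2979 and 3738 CPM (3093 ± 596, SD, n = 3) and at 41.1, 14.7 and 17.6 CPM outside, a 126-fold difference of the means. Laptm5 gave 384 of the 1166 member identifiers in cluster 1. No plate was highest for all members.

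Among clusters 0, 2, 3 and 4 the levels rested on few identifiers. Laptm5 was at 22.3, 5.60, 63.6 and 19.8 CPM in them over all plates, from 10, 2, 10 and 2 identifiers. Fcer1g was at 13.4, 11.2, 44.5 and 29.8 CPM, from 6, 4, 7 and 3 identifiers. For both, as for Ptprc, cluster 3 was the next highest after cluster 1. Of its 30 cells 25 came from plate 1, and 1 of these held 11 member identifiers.

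In cluster 1, most cells had at least 1 identifier of each member at the depth reached. Laptm5 was detected in 34 of 36 cells (94.4%, exact 95% interval 81.3 to 99.3%), Fcer1g in 32 (88.9%), Tyrobp in 31 (86.1%, 70.5 to 95.3%), and Trem2 and Pld4 in 30 each (83.3%). Inpp5d, Abi3 and Bin2 were detected in 29 cells each (80.6%, 64.0 to 91.8%). Ptprc was detected in 21 cells (58.3%, 40.8 to 74.5%), the lowest share of the members. These intervals cover counting error only.

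Clusters 0 and 2, 77 cells in which oligodendrocyte markers are highest, served as the background, and whether identifiers there come from free RNA, doublets or the cells themselves was not tested. Of the 6 cells outside cluster 1 with 3 or more members, 4 lay in these clusters. At a median depth of 8959 identifiers they had Laptm5 in 10.4% of cells, Fcer1g in 7.79%, Pld4 in 6.49%, Trem2 and Tyrobp in 5.19%, Abi3 in 3.90%, and Inpp5d, Bin2 and Ptprc in 2.60%. With every cell brought to 1000 identifiers, the expected shares in cluster 1 were 89.0% for Laptm5, 66.2% for Fcer1g, 54.1% for Trem2, 53.6% for Tyrobp, 50.5% for Pld4, 46.7% for Abi3, 45.7% for Bin2, 37.5% for Inpp5d and 31.5% for Ptprc. In clusters 0 and 2 they were then between 0.104% (Inpp5d) and 2.02% (Laptm5). No cell had to be left out at that depth. Clusters 3 and 4 were not part of this background. In the 30 cells of cluster 3, Laptm5 was detected in 23.3% at full depth, Fcer1g in 20% and Ptprc in 16.7%. At 1000 identifiers the expected share of Laptm5 there was 5.59%. Abi3, Pld4, Trem2 and Tyrobp had lower shares at full depth in cluster 3 than in clusters 0 and 2. In the 6 cells of cluster 4, Fcer1g reached 50% and Laptm5 33.3%, while Inpp5d, Bin2 and Tyrobp had no identifier.

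**Figure D2:**
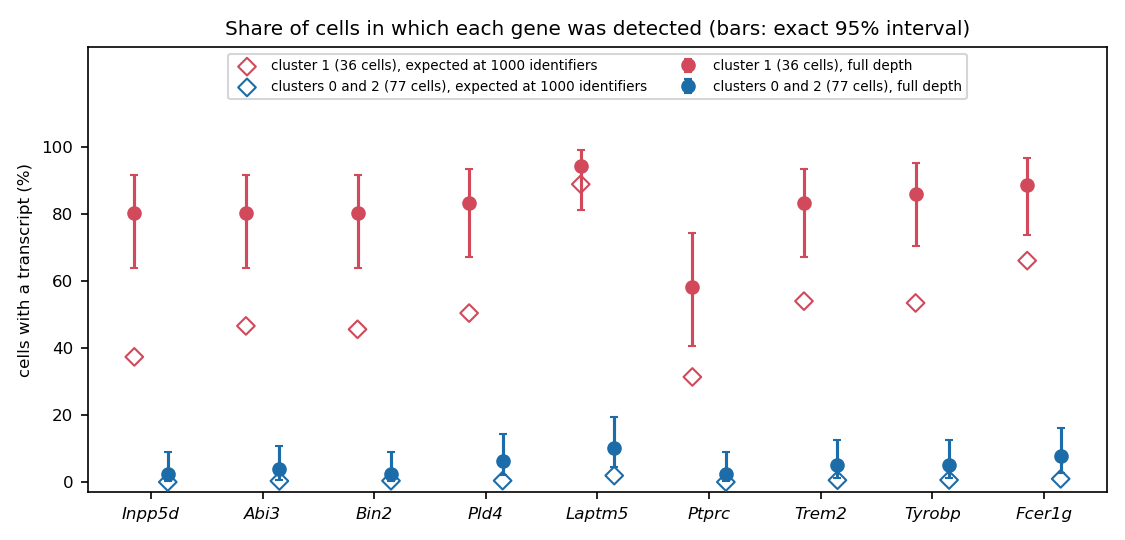
The y axis gives the share of cells with at least 1 transcript of each gene, for cluster 1 (36 cells) and for clusters 0 and 2 (77 cells); filled points are the shares at full depth with exact 95% intervals, and open diamonds the shares expected at 1000 identifiers per cell. Laptm5 is at 94.4% in cluster 1 and Ptprc at 58.3%, while no gene exceeds 10.4% in clusters 0 and 2. Clusters 3 and 4 are not plotted, and shares at full depth reach 23.3% (Laptm5) in cluster 3 and 50% (Fcer1g) in the 6 cells of cluster 4.

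Most cells of cluster 1 held several members at once. Each member but Ptprc was detected in 29 or more of the 36 cells, and such rates alone make joint detection frequent. The joint counts below are therefore a description, and a link between members beyond these rates was not tested. A cell of cluster 1 had a median of 8 of the 9 genes, 14 cells had all 9, and 32 had 6 or more. Trem2 and its adaptor Tyrobp were both detected in 28 cells, Trem2 alone in 2, Tyrobp alone in 3 and neither in 3. Tyrobp and Fcer1g were both detected in 30 cells, Tyrobp alone in 1, Fcer1g alone in 2 and neither in 3. Every cell with Ptprc also had Laptm5, while 13 cells had Laptm5 without Ptprc.

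Of the 36 cells, 2 had at most 1 member, both on plate 1. One had 0 of the 9 genes among 1615 identifiers, 4 identifiers from the microglia list, none of Csf1r, and 16 from the endothelial and mural list, of which 12 were Cldn5, the tight-junction gene of brain endothelium. Its autofluorescence of 218 was the lowest in cluster 1 of its plate. Another had 1 identifier of Abi3 among 1512, 33 microglia identifiers and an autofluorescence of 5303. Outside cluster 1, 6 cells had 3 or more members. The highest, in cluster 3 of plate 1, had 6 members with 11 identifiers, and microglia markers made up 1.01% of its identifiers. A cell of cluster 0 on plate 3 had 4 members with 7 identifiers and a microglia share of 0.988%. No doublet caller was run, and the part of doublets in these cells was not tested.

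The genes most like each member were taken from 7599 genes by Pearson's r of log2(CPM + 1) over the 11 sums of plate and cluster, which share libraries and depth. Trem2 was closest to Fgd2 (0.97), Itgb2 and Ctss, Tyrobp to Pik3cg (0.99), Vav1 and Csf3r, and Fcer1g to Fcrls (0.98), Itgam and P2ry12. Inpp5d was closest to Cebpa (0.997), Cd37 and Slc7a8, and Ptprc to Prkcd (0.98), Fcer1g and Lair1. Abi3 was closest to Lacc1 (0.95), Zfhx3 and Capza2, and Laptm5 to Zfhx3 (0.96), Cx3cr1 and Fos. Among the 3 genes closest to Bin2 were Ctsc (0.99) and Rab3il1, and among those closest to Pld4 were P2ry12 (0.99) and Rgs2. The only member named among these is Fcer1g.

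A wider list of pathway genes was likewise concentrated in cluster 1. The list was drawn around signalling through tyrosine-motif adaptors and takes in other receptors, such as Csf1r and Sirpa. Of its 39 measured genes, which exclude the members, 32 had over 50% of their identifiers in cluster 1. Among the 24 with at least 20 identifiers it was 19, against 355 of 7599 genes overall. They include the kinase Lyn (40 of 45 identifiers), the exchange factor Vav1 (22 of 23), the phosphatase Ptpn6 (51 of 53) and the Fc receptor Fcgr3 (157 of 163). Most identifiers of the kinase Fyn (3 of 69 in cluster 1) and the adaptor Grb2 (23 of 172) lay elsewhere, but cluster 1 held only 126938 of all 1180212 identifiers. By level, Fyn was at 23.6 CPM in cluster 1 and at 44.5 to 76.0 CPM in the other clusters. Grb2 was at 181 CPM in cluster 1, within the 57.3 to 191 CPM of the other clusters. Syk itself had 15 of 16 identifiers in cluster 1. These examples were chosen after their values were seen. The list shares Csf1r, Siglech and Itgam with the microglia list and was chosen with earlier results of these data known. Its counts therefore describe the list and are not read as support.

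Other Alzheimer risk genes were spread over the clusters, though a larger part of them than of all genes lay mainly in cluster 1. Of 46 measured, 13 had over 50% of their identifiers in cluster 1, against 1196 of all 16178 genes. With at least 20 identifiers it was 8 of 35, against 355 of 7599. Cd33 (21 of 25), Mef2c (58 of 74), Plcg2 (20 of 30) and Grn (279 of 408) were mainly in cluster 1. Apoe (272 of 2694) and Clu (37 of 1254), lipoprotein genes of astroglia, were highest in cluster 3, and Bin1 (130 of 1210), Mapt (7 of 1100) and App (33 of 2383) in clusters 0 and 2. Apoe and Bin1 were not low in cluster 1, at 2143 and 1023 CPM. Apoe was at 10755 CPM in cluster 3, and Bin1 at 1294 and 1374 CPM in clusters 0 and 2. These examples, too, were chosen after their values were seen. Of 15 measured genes of damage-associated microglia, which in mouse models rise around amyloid, 7 had over 50% of their identifiers in cluster 1 and 8 were highest there. Of all 16178 genes, 1196 had over 50% in cluster 1 and 3397 were highest there. Among the genes of this list with at least 20 identifiers, 2 of 9 had over 50% in cluster 1, against 355 of 7599. Ctsd had 633 of 816 identifiers in cluster 1, Lpl 19 of 24, Ccl6 16 of 16, Clec7a 11 of 11, Lyz2 7 of 7, Itgax 5 of 5 and Cst7 1 of 1. Ctsb was highest in cluster 1 with 358 of 992, most identifiers of Apoe and Fth1 lay outside it, and Gpnmb had 0 identifiers.

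Autofluorescence was then set against the members. It was recorded for each cell in arbitrary units, and its median in cluster 1 was 4929, 5397 and 3950 on the 3 plates, against 1658, 1577 and 1048 in the other cells. Cells above the median of their plate were called high and the others low, transcripts were summed per plate and class, and the 6 sums were compared with plate as a block. Of the 36 cells of cluster 1, 32 fell among the 73 high cells and 4 among the 76 low cells, so this comparison is in large part one between cluster 1 and the rest.

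Each member was higher in the high cells. These hold most cells of cluster 1, which was drawn on these same expression values. The p-values below are therefore not read as support for a relation to autofluorescence itself. Bin2 was at 200, 228 and 72.2 CPM in high cells and at 5.80, 9.26 and 4.37 CPM in low cells on plates 1, 2 and 3, a log2 fold change of 4.51 (SE 0.59, adjusted p = 4.72e-05 by edgeR's quasi-likelihood test). Inpp5d was at 79.9, 177 and 56.1 CPM against 5.80, 13.9 and 0 CPM (3.94, SE 0.71, adjusted p = 0.00112). Trem2 was at 200, 364 and 64.2 CPM against 17.4, 46.3 and 8.73 CPM (3.07, SE 0.47, adjusted p = 0.000186), and Tyrobp at 144, 344 and 56.1 CPM against 0, 37.0 and 8.73 CPM (3.49, SE 0.57, adjusted p = 0.00046). In all 4 genes every high sum lay above every low sum.

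Fcer1g was at 392, 450 and 112 CPM in high cells and at 29.0, 55.6 and 0 CPM in low cells (log2 fold change 3.62, SE 0.49). Laptm5 was at 616, 983 and 369 CPM against 58.0, 139 and 21.8 CPM (3.32, SE 0.40), Pld4 at 232, 278 and 68.2 against 17.4, 27.8 and 0 (3.71, SE 0.54), and Abi3 at 184, 162 and 100.2 against 5.80, 27.8 and 0 (3.72, SE 0.62). Their adjusted p-values in edgeR were between 1.94e-05 (Laptm5) and 0.000519 (Abi3).

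Ptprc changed least. It was at 95.9, 147 and 60.2 CPM in high cells and at 34.8, 32.4 and 0 CPM in low cells (log2 fold change 2.32, SE 0.60, adjusted p = 0.0258 in edgeR). The call was lost in DESeq2 (adjusted p = 0.0575), without plate 2 (0.514) and without plate 3 (0.179). Without plate 2, whose cluster 1 held 18 of the 36 cells, Inpp5d, Trem2 and Tyrobp were lost as well, with adjusted p-values of 0.169, 0.0678 and 0.153. Without the plate block none of the 9 was called, with adjusted p-values from 0.171.

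In that comparison 4.03% of 3723 genes passed the adjusted threshold of 0.05, 3.89% higher and 0.134% lower in high cells, and 6.67% of 7599 genes had every high sum above every low sum. Neither the members' count nor their p-values are read as support, because passing the filter rested on the high sums. All 9 had each of their 3 high sums over its cutoff of 48.3 CPM. Of the low sums, only 2 of Laptm5 and 1 of Fcer1g were over it. Cluster 1 supplied between 92.9% (Ptprc) and 100% (Tyrobp) of the members' identifiers in high cells. On plates 1 and 3 no member identifier of the low cells came from cluster 1. The low class held only 1 cell of cluster 1 on plate 1, the cell with endothelial markers and 0 members, and 0 on plate 3. Leaving out the cell with endothelial markers changed no member's call.

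Of the wider lists, 6 of 10 tested genes of the adaptor list rose in high cells, namely Siglech (log2 fold change 4.12), Fcgr1 (3.57), Fcgr3 (3.50), Csf1r (3.19), Sirpa (2.55) and Itgam (2.30), and none fell. These counts are not read as support either: cluster 1 holds most of these genes' identifiers, and 10 of 39 genes passed a filter that the high sums can meet alone. Siglech, Csf1r and Itgam also stand on the microglia list, of which 15 of 16 tested rose, the exception being Sall1 (0.84, SE 0.43). Of 24 tested Alzheimer risk genes, 2 rose, Grn (2.18) and Clu (1.47), and 22 did not pass, among them Apoe (0.67, SE 0.28) and Bin1 (0.04, SE 0.31). Of 7 tested genes of the damage-associated list, Ctsd (2.84), a lysosomal protease, rose.

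**Figure D3:**
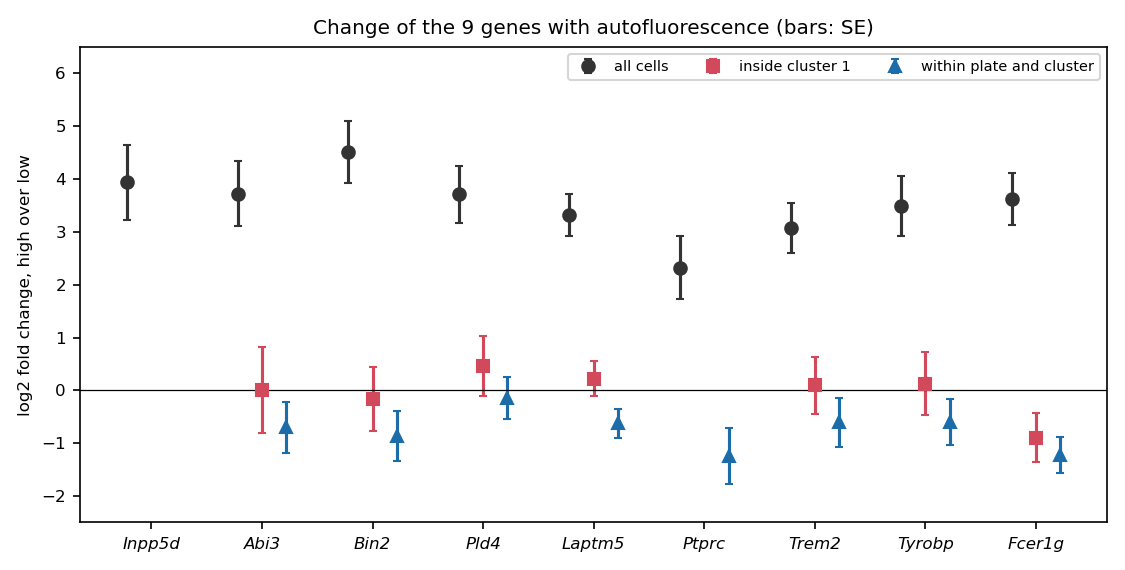
The y axis gives the log2 fold change of high over low autofluorescence cells with its SE for each of the 9 genes, over all cells (black circles), inside cluster 1 (red squares) and within plate and cluster (blue triangles). Over all cells the values run from 2.32 to 4.51, inside cluster 1 from -0.90 to 0.46; Inpp5d and Ptprc inside cluster 1 and Inpp5d within plate and cluster did not pass the filter.

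Inside cluster 1 no member was called in either direction. High and low were split there at the median of cluster 1 on each plate, which gave 17 high and 19 low cells. Of 210 genes tested by edgeR 0.0% passed the adjusted threshold, 2 had an unadjusted p under 0.05, and DESeq2 called 0 with 0 unadjusted. The comparison can miss changes: its sums hold between 8939 and 39323 identifiers, and 7 of the 9 members passed the filter.

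Fcer1g was lower in the brighter cells on every plate, at 645, 1052 and 671 CPM against 2019, 1396 and 1410 CPM in the dimmer cells. The groups did not overlap, as for 5.29% of the 1116 genes with at least 20 transcripts in cluster 1. Its log2 fold change was -0.90 (SE 0.46, unadjusted p = 0.0534, adjusted p = 0.999 in edgeR), which does not pass. Tyrobp, the other adaptor, was at 553, 1227 and 447 CPM against 637, 812 and 671 CPM (0.13, SE 0.60). Trem2 was at 1107, 1286 and 223 CPM against 637, 965 and 940 CPM (0.10, SE 0.54). Both pairs of groups overlapped, and the plates went different ways.

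Laptm5 was at 3508, 2720 and 3804 CPM against 2019, 3203 and 3698 CPM (log2 fold change 0.22, SE 0.33). Pld4 was higher in brighter cells on 3 of 3 plates, at 1014, 964 and 782 CPM against 956, 634 and 537 CPM (0.46, SE 0.56), with groups that overlapped. Bin2 gave -0.17 (SE 0.60) and Abi3 0.01 (SE 0.82). The SE of Abi3 was 0.57 with RLE scaling and 0.15 from recovered identifiers, so it is no stable measure of spread at a change this near 0. For the other tested members, standard errors of 0.33 to 0.60 leave room for changes of either sign.

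Inpp5d and Ptprc did not pass the filter inside cluster 1. Inpp5d was lower in brighter cells on 3 of 3 plates, at 277, 409 and 447 CPM against 372, 584 and 604 CPM, from 21 and 39 identifiers. Ptprc was at 92.2, 467 and 224 CPM against 478, 457 and 873 CPM, from 19 and 40 identifiers. All 16 tested genes of the microglia list and all 5 of the adaptor list were likewise uncalled inside cluster 1, with Csf1r at -0.24 (SE 0.29) and Fcgr3 at -0.42 (SE 0.44). The 2 genes with an unadjusted p under 0.05 were both on the microglia list and went opposite ways, Fcrls at 0.89 (SE 0.41) and P2ry12 at -0.70 (SE 0.32).

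**Figure D4:**
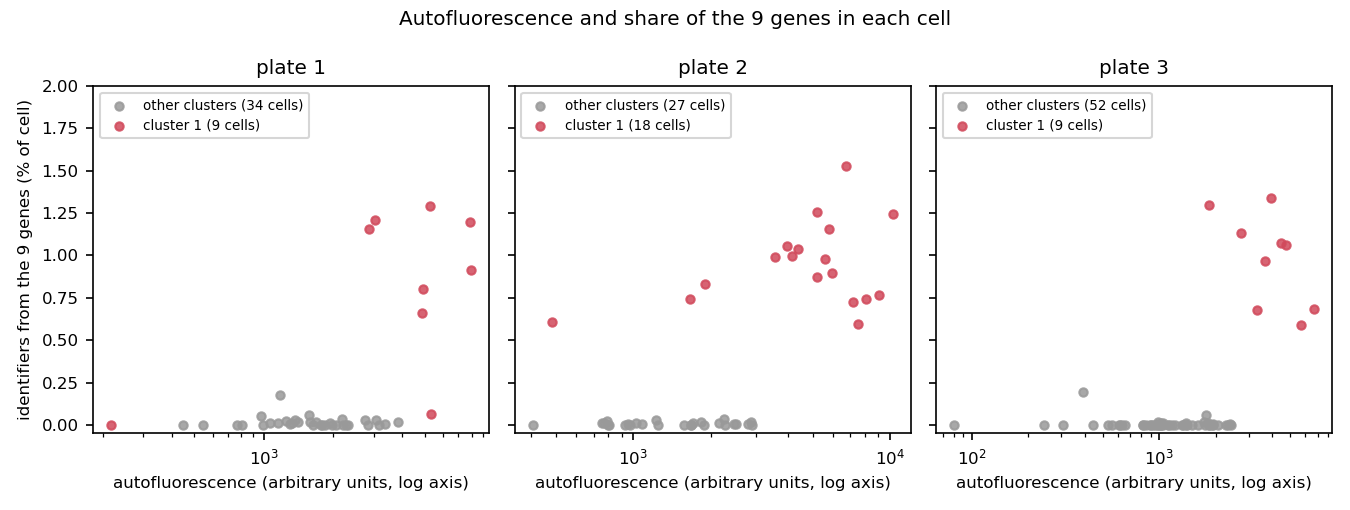
Each point is 1 cell: the x axis gives its autofluorescence in arbitrary units on a log axis, the y axis the share of its identifiers that come from the 9 genes, with 1 panel per plate and cluster 1 in red. Of the 36 cells of cluster 1, 32 lie above the median autofluorescence of their plate, and all but 2, on plate 1, lie above 0.5%, while other cells lie near 0 at any autofluorescence.

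Over single cells of cluster 1, Spearman's rho of autofluorescence with the summed share of the 9 members was 0.22 on plate 1 (9 cells), 0.04 on plate 2 (18 cells) and -0.50 on plate 3 (9 cells). The plate 1 value was -0.12 without the cell with endothelial markers. Most single members gave rho of different sign from plate to plate, such as Abi3 (0.75, -0.19 and 0.18) and Trem2 (0.23, 0.14 and -0.61). The exceptions were Tyrobp, above 0 on each plate (0.05, 0.58 and 0.03), and Fcer1g, below 0 on each (-0.27, -0.06 and -0.25). Cells of a plate share library and pooled animals, and these values are given with no test. Depth and autofluorescence had rho of 0.03, 0.01 and -0.38 in the same cells.

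Outside cluster 1 the members were too sparse to test. None of the 9 passed the filter, in a comparison of 56 high with 57 low cells in which 0.378% of 2913 genes were called, 0.343% higher and 0.0343% lower in high cells. Without plate 3 the calls turned to 0 higher and 5 lower. Over the 3 plates Laptm5 had 8 identifiers in high and 16 in low cells, Fcer1g 12 and 8, Ptprc 5 and 5, Pld4 4 and 4, Trem2 1 and 5, and Tyrobp 0 and 4. Abi3 had 3 and 2, Inpp5d 2 and 1, and Bin2 2 and 2. Fcer1g was higher in high cells on 3 of 3 plates and Trem2 on 0 of 3, from counts too small to part.

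At least 1 member identifier was found in 43 of the 113 cells outside cluster 1 (38.1%, exact 95% interval 29.1 to 47.7%), and 27 of the 43 had exactly 1. Cells with a member had a median autofluorescence of 1489 on plate 1, 1713 on plate 2 and 1567 on plate 3, against 1819, 1412 and 1025 in cells without. The difference had no common sign. Cells with a member were also deeper on each plate, at 6332, 11722 and 8129 identifiers against 3874, 9271 and 7841, and rho of depth with autofluorescence outside cluster 1 was 0.08, 0.36 and 0.51. The part of depth in these differences was not tested.

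The difference of the autofluorescence effect inside and outside cluster 1, fitted as an interaction over 12 sums, passed for no member. As the members had at most 16 identifiers in either class outside cluster 1, the outside part of each value rests on few counts, and the values below are estimates rather than a test that could show a difference. Of 2289 genes, 0.0437% passed, which is the single gene Ccnd2, no member. Tyrobp had the largest value, a log2 difference of 3.23 (SE 1.43, unadjusted p = 0.0243, adjusted p = 0.945 in edgeR), and its sums in high cells outside cluster 1 were all at 0, so that this value depends on the prior count. Fcer1g gave -1.79 (SE 0.97, adjusted p = 0.945), and the other members lay between -1.65 (Ptprc) and 1.51 (Trem2).

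With cells split at the median of their own plate and cluster, all 8 tested members had lower estimates in the brighter cells, and none passed (0.0% of 3540 genes called in edgeR with 186 at an unadjusted p under 0.05; DESeq2 called 0 with 49). Fcer1g was at -1.23 (SE 0.34, adjusted p = 0.456) and Ptprc at -1.24 (SE 0.53, adjusted p = 0.827). Bin2 was at -0.86, Abi3 at -0.70, Laptm5 at -0.63, Trem2 at -0.61, Tyrobp at -0.60 and Pld4 at -0.15, and Inpp5d did not pass the filter. Beside these stands the share of cluster 1 in the sums, which was lower in the brighter class on every plate: 7.62% against 12.2% of identifiers on plate 1, 15.6% against 20.6% on plate 2 and 3.09% against 8.02% on plate 3. Of 17 tested genes of the microglia list, 16 had estimates below 0 as well, with a median of -0.86 against 0.02 over all genes. The part of this share in the members' values was not tested.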

How the data were processed

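The data are SORT-seq libraries, in which each well of a plate carries a barcode and each molecule an identifier. Expression values are estimated counts of transcripts, deposited by the authors after correction for identifier collisions; inverting it with 4096 identifiers gave whole numbers for 100% of 349688 values within 1e-06. The filtered table equals the unfiltered table of 235 wells in shared wells. Autofluorescence is an intensity on a linear scale, as deposited by the authors; its optics are not stated. Cluster numbers are the authors'. Tools listed in the submitters' processing notes are Seurat 4.1.1, R 4.2.0 and BWA 0.7.15, and genome builds are mm10 and hg19; the annotation used is not stated. The plate was read from the last digit of the library name; 13 columns per cell were not used.

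Estimated counts were summed per plate and class and rounded, then tested in edgeR 4.0.16 (R 4.3.3) by quasi-likelihood (TMM scaling, low counts removed by filterByExpr), with plate as block (cells of a plate come from 1 experiment) and Benjamini-Hochberg adjustment over all genes at 0.05, after a check on simulated data. P-values measure the spread left between sums once plate is fitted, which may be technical. Alternatives were RLE scaling, no filter, DESeq2 1.42.0, no block, each plate left out, recovered identifiers and cells thinned to 1000 identifiers. Named genes are the 9 members, the 3 genes closest to each, the genes of fixed lists past the threshold (at most 6 a list by size) and, where none passed, 3 by total; exceptions are stated, and some genes that the rule names are not reported here. The members and lists were chosen with earlier results of these data known.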

Additional observations from a re-analysis of the deposited data

Results flagged for a closer look

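Wells that the filtered table leaves out were not part of any comparison, and they held identifiers of the 9 genes. Over 86 such wells with a median of 265.5 identifiers, 20 of 28614 identifiers came from the members, a share of 0.0699%, above the 0.0105% that 3 counts would give. The share was 0.257% on plate 1, 0.0663% on plate 2 and 0.023% on plate 3. The share over all these wells lies between the 0.919% of cluster 1 and the 0.00798% of the other cells. It is below the 0.106% found over all cells that were kept, so it is no excess over them. A member was found in 14 of the wells (16.3%, exact 95% interval 9.20 to 25.8%), and the well with most had 4 identifiers of 3 members. Laptm5 gave 5 of the identifiers, Fcer1g 4 and Bin2 3. No sample served as a negative control, so this share was not set against empty wells.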

How the results depend on the processing

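Over all cells the members' log2 fold changes kept their sign under every alternative run. The count of called genes was 150, and it was 307 with no filter, 0 with no replicate block (207 at an unadjusted p under 0.05), 45 of 241 in thinned cells, where Laptm5 alone of the members was tested and stayed called and the median of all genes moved to -0.24, and 39 to 180 with each plate left out, lowest without plate 2. Outside cluster 1 the count of 11 became 7 with RLE scaling, 74 with no filter, 0 with no replicate block, 1 in thinned cells and 0 to 7 with a plate left out. The 1 call of the interaction became 0 with no filter, with no replicate block, in thinned cells and with any plate left out. Within plate and cluster the count of 0 became 2 with no filter and 0 to 4 with a plate left out. The members' share of transcripts in cluster 1, a mean of 91.9% over plates, was 98.9% when mean levels per cell replaced sums, and 89.6 to 94.3% with a plate left out.

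Uncalled values inside cluster 1 changed sign under several alternatives. With no filter Tyrobp was at -0.16, Trem2 at -0.21, Laptm5 at -0.061 and Abi3 at -0.28. The median of all genes there moved as well, from 0.027 to -0.27. With the split at the median over plates Trem2 was at -0.22, Pld4 at -0.010 and Abi3 at -0.23. DESeq2 gave Trem2 -0.032 and Abi3 -0.0083, and Abi3 was at -0.018 with RLE scaling, at -0.00049 from recovered identifiers and at -0.0061 without the cell with endothelial markers, an alternative chosen after seeing the data. Laptm5 was at -0.034 in thinned cells. With a plate left out Trem2 ranged from -0.32 to 0.62, Laptm5 from -0.13 to 0.42, Bin2 from -0.84 to 0.15 and Abi3 from -0.77 to 0.51. In the interaction Pld4 ranged from -0.67 to 1.06, Bin2 from -1.16 to 0.48 and Abi3 from -1.65 to 0.88, and within plate and cluster Trem2 from -1.24 to 0.015 and Pld4 from -0.44 to 0.0032. The cause of these changes was not tested. Fcer1g stayed negative in each of these 3 comparisons under all alternatives run. All members other than Laptm5 fell out of the thinned fits over all cells and inside cluster 1, so those gave no value for them. With 3 plates and 59 to 384 identifiers per member in cluster 1, a change of the size of the standard errors could not be detected there.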
